A study of Arabidopsis thaliana with 12 samples.

Results

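Brassinosteroids are steroid hormones that promote cell elongation, and seedlings that cannot make them de-etiolate partly in the dark. Cytochrome P450 enzymes carry out the late steps of synthesis, and other P450 enzymes inactivate the finished hormone. Active hormone represses several synthesis genes through the transcription factors BZR1 and BES1, so their transcripts are often read as a feedback readout. Here 7 genes of these enzymes were described, chosen by name. The 5 synthesis genes were CPD (AT5G05690), DWF4 (AT3G50660), ROT3 (AT4G36380), BR6OX1 (AT5G38970) and BR6OX2 (AT3G30180). The 2 inactivation genes were BAS1 (AT2G26710) and SOB7 (AT1G17060). The files gave values for 3 of the 7, CPD, BR6OX1 and SOB7, among 11417 genes with a value in any of 6 deposited tables.

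RNA was sequenced from Arabidopsis thaliana seedlings of ecotype Columbia. All groups spent 4 days in the dark on MS medium with 1% sucrose, and the illuminated groups then received 3 h of light. The 4 groups crossed genotype (Col-0 or 35S:miR396a) with light (kept dark or illuminated), each with 3 libraries labelled as biological replicates. Col-0 is the wild type, and 35S:miR396a expresses the microRNA miR396a from the strong, broadly active 35S promoter. Neither the light source nor the number of transgenic lines is stated in the sources used here. The design asks how light changes transcripts during de-etiolation and whether excess miR396a alters that change. As a check of the labels, 6 of 8 known miR396 targets were listed as lower in the transgenic line in the dark, 6 of 8 in the light, and none as higher. Among all 11417 genes 10.6% were listed lower in the dark and 25.9% in the light, and 8.74% and 35.5% higher. This target list was added after values were seen.

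Each level below is the authors' mean FPKM (fragments per kilobase of transcript, scaled to library size) over the 3 libraries of a group. Values of single libraries were not analysed here, so no SD stands beside a mean and no difference could be set against the spread between replicates. A gene is called listed where the authors' deposited table of a comparison holds it. Every row of those tables has a fold above 2 and a q-value under 0.001. The deposited p-values carry counting error on reads pooled over a group. The labels give hypocotyl as the tissue, whereas the protocol describes seedlings. Of 7 root markers 6 had a value in some table, and PYK10, a root and seedling glucosidase, was at 3007 FPKM in dark 35S:miR396a. Of 6 shoot-apex markers 4 had a value, with the stem-cell peptide gene CLV3 at 0.316 to 0.946 FPKM over the groups. In bulk tissue, fewer cells of a type and less RNA per cell cannot be told apart.

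DWF4, which hydroxylates the side chain at an early and flux-limiting step, was in none of the 6 tables. The same held for ROT3, a side-chain hydroxylase, for BR6OX2, which can carry the pathway through to brassinolide, and for BAS1, which hydroxylates and thereby inactivates brassinolide. No level of these 4 genes is given here, and absence from the tables does not separate a change under 2-fold from a very low level. The 3 members with values were each in 3 of the 6 tables and so had a mean in all 4 groups.

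The sequences upstream of these 3 genes are shown because they are the members with a listed change. Each line is the 250 bases before the annotated gene start, read 5′ to 3′ from the RefSeq genome TAIR10.1. CPD lies on chromosome 5 from 1702640 to 1706948, minus strand, and its upstream window is chr5:1706949-1707198. BR6OX1 lies on chromosome 5 from 15594674 to 15598089, minus strand, with the window chr5:15598090-15598339. SOB7, named CYP72C1 in RefSeq, lies on chromosome 1 from 5832094 to 5835488, minus strand, with the window chr1:5835489-5835738. Capitals mark matches to the E-box CANNTG, the core bound by many basic helix-loop-helix factors.
CPD: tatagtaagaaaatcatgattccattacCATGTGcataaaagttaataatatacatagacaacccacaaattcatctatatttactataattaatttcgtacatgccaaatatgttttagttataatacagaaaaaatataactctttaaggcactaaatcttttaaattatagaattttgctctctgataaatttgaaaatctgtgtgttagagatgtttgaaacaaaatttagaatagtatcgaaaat
BR6OX1: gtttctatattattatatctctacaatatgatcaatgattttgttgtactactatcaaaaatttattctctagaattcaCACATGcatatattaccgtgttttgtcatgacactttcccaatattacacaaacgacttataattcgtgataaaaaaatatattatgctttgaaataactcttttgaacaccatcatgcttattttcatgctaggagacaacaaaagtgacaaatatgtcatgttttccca
SOB7: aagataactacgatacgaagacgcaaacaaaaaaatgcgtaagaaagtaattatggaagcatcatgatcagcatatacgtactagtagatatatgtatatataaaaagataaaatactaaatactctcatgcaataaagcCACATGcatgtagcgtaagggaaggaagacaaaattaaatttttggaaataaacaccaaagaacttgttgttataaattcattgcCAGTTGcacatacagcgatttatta
CPD and BR6OX1 each held 1 E-box and SOB7 held 2, and 55.3% of 27443 upstream windows of this length hold at least 1. The brassinosteroid response elements CGTGTG and CGTGCG, the G-box CACGTG, which is itself an E-box, and the evening element AAAATATCT, bound by clock MYB factors, had no match on either strand in these 3 windows. They occur in 5.37%, 1.57%, 6.49% and 2.36% of all windows. Only these windows were searched. CPD has 3 annotated transcripts and BR6OX1 has 4, and any transcript start inside the gene, or sequence farther upstream, was not covered. Absence from a window is therefore not absence from the promoter. Of the other 4 members, DWF4, ROT3 and BAS1 had 1 E-box each and BR6OX2 had none, and none of them held the other motifs.

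CPD, a CYP90-family enzyme without which seedlings are dwarfed and partly de-etiolated in the dark, was the most abundant of the 3. Its mean was 143.5 FPKM in dark Col-0 and 52.45 in illuminated Col-0. In 35S:miR396a it was 177.9 FPKM in the dark and 77.85 in the light. Both dark groups stood above both illuminated groups. CPD fell with light in Col-0 2.71-fold (log2 fold −1.44, the authors' deposited table). It also fell with light in 35S:miR396a, 2.28-fold (log2 fold −1.19, the authors' deposited table). Under median-of-ratios scaling the log2(FPKM + 1) ratio in Col-0 was −0.92, short of 2-fold. CPD was not listed between genotypes, where its mean in 35S:miR396a was 1.24 times that in Col-0 in the dark and 1.48 times in the light. Illuminated 35S:miR396a and dark Col-0 were neighbours in the order of levels and were not listed either, at a ratio of 1.84. The lowest and highest groups, illuminated Col-0 and dark 35S:miR396a, differed 3.39-fold. CPD exceeded 95.6% of the genes with a value in dark Col-0 and 89.6% of those in illuminated Col-0. Its p-values were listed at 0, which requires at least 1757 pooled reads in illuminated Col-0, so counting error is small for it. Its annotated end overlaps MOS7, on the opposite strand, by 20 bases.

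BR6OX1, an oxidase of the last steps that make castasterone, was present at far lower levels. Its mean was 3.51 FPKM in dark and 1.74 in illuminated Col-0, and 2.75 and 0.436 FPKM in 35S:miR396a. Here too the dark groups were above the illuminated ones, and illuminated 35S:miR396a was the lowest by a wide margin. BR6OX1 fell with light in 35S:miR396a 6.34-fold (log2 fold −2.66, the authors' deposited table). In the light it was lower in the transgenic line than in the wild type, 4.12-fold (log2 fold −2.04, the authors' deposited table). The log2(FPKM + 1) ratio of that comparison was −0.93, short of 2-fold. In the order of its levels, the neighbours dark Col-0 and dark 35S:miR396a were not listed as different, nor were dark 35S:miR396a and illuminated Col-0. The coding sequences of BR6OX1 and BR6OX2 are 81.9% identical over aligned bases, with a longest identical run of 32 bases, so reads that match both may have been split between them.

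The light response of BR6OX1 in Col-0 lay at the edge of the authors' threshold. The ratio of the mean FPKM was 2.02, yet the gene was not listed. Pooled reads were solved from the deposited folds and p-values and came to 776 in dark and 409 in illuminated Col-0, and to 627 and 106 in 35S:miR396a. The last of these was obtained from 3 tables separately, with results of 106.0 to 106.1. From these reads and the relative depth, the light fold in Col-0 was 1.97, with a 95% counting interval of 1.75 to 2.22. The interval contains the authors' threshold of 2 and lies above 1. Subtracting the log2 light fold of Col-0 from that of 35S:miR396a gave −1.69, with a 95% counting interval of −2.03 to −1.34. These intervals cover counting error only, and the difference was not tested against replicates.

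Stomatal-lineage markers differed between genotypes in the light in the same direction as BR6OX1. All 4 of the 4 markers (SPCH, MUTE, FAMA and EPF1) were listed as lower in the transgenic line after light. Among all 11417 genes 25.9% were listed lower and 35.5% higher in that comparison. Their summed level was 5.18 FPKM in dark and 10.999 in illuminated Col-0, and 8.38 and 2.15 in 35S:miR396a, and none was at 0. The sum was highest in illuminated Col-0, where BR6OX1 was below both dark groups. Root and shoot-apex markers went the other way between genotypes in the light, with 1 of 7 and 1 of 6 listed as higher and none as lower. The part of any of these markers in the BR6OX1 result was not tested.

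SOB7, a CYP72-family relative of BAS1 that lowers active brassinosteroid, was listed with light in Col-0 and not in 35S:miR396a. Its mean was 26.1 FPKM in dark Col-0 and 8.04 in illuminated Col-0. In 35S:miR396a it was 18.4 FPKM in the dark and 17.7 in the light. Illuminated Col-0 stood apart from the other 3 groups, all of them above 17 FPKM. SOB7 fell with light in Col-0 3.25-fold (log2 fold −1.70, the authors' deposited table). In the light it was higher in the transgenic line than in the wild type, 2.19-fold (log2 fold 1.13, the authors' deposited table). Under median-of-ratios scaling this log2(FPKM + 1) ratio was 0.72, short of 2-fold. From pooled reads of 4316 and 4449, the light fold in 35S:miR396a was −0.06 on the log2 scale, with a 95% counting interval of −0.12 to 0.00. The same subtraction gave 1.64, with a 95% counting interval of 1.55 to 1.74. This difference has the opposite sign to that of BR6OX1, and it too was not tested against replicates. In the dark its mean in Col-0 was 1.42 times that in 35S:miR396a, and neighbours among the 3 higher groups were not listed as different. Of the markers of other cells, 1 of 7 root genes and 1 of 6 shoot-apex genes were listed as higher in the transgenic line after light. These were WOX5 (0.42 in Col-0 and 1.18 FPKM in the transgenic line) and CLV3 (0.316 and 0.883 FPKM). No root or shoot-apex marker was listed as lower, whereas all 4 stomatal-lineage markers were. Among all 11417 genes 35.5% were listed higher and 25.9% lower. The part of these markers in the result was not tested. The gene model of AT1G17065, on the opposite strand, overlaps SOB7 by 1728 bases, and without strand information their reads cannot be told apart.

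**Figure D1:**
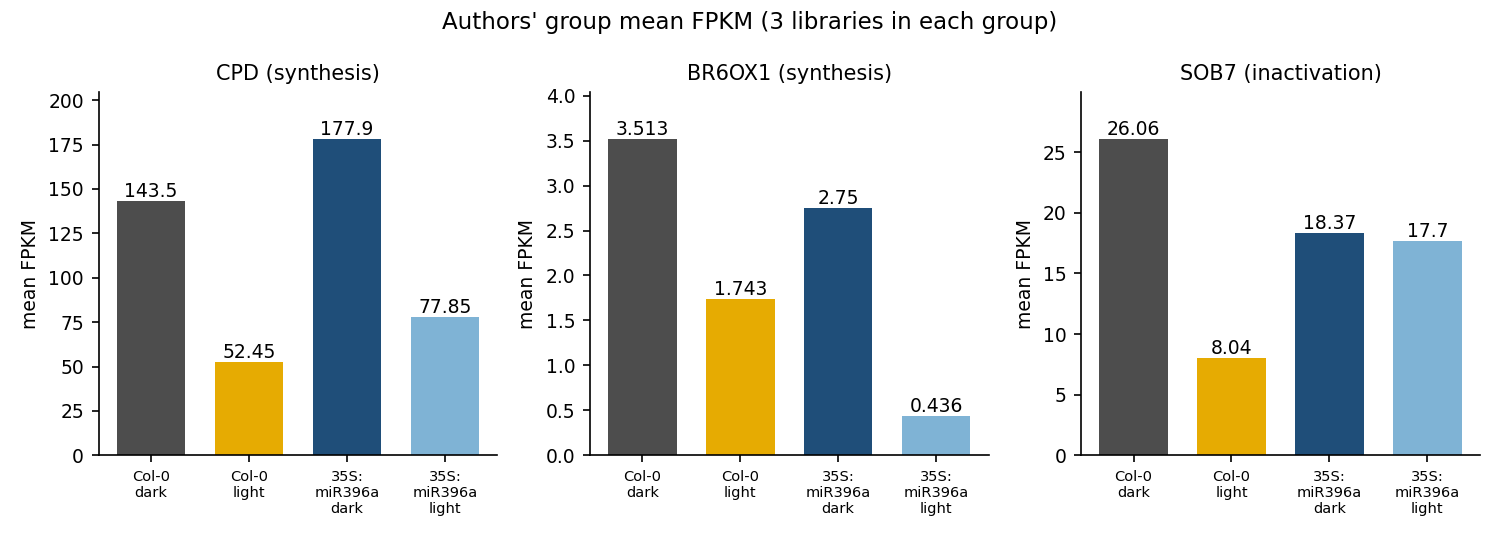
Authors' group mean FPKM of CPD, BR6OX1 and SOB7 in the 4 groups, 1 bar per group of 3 libraries, with no error bars because single libraries were not analysed here. CPD and BR6OX1 were higher in both dark groups than in both illuminated groups, while SOB7 was low in illuminated Col-0 alone, at 8.04 FPKM.

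**Figure D2:**
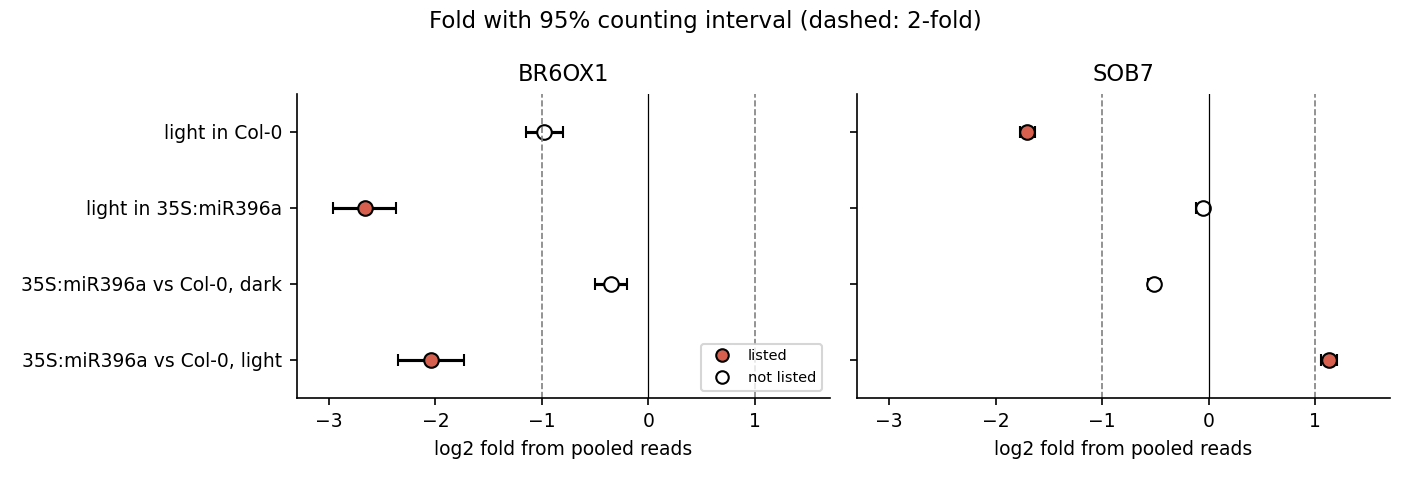
Log2 fold from pooled reads (points) with 95% counting intervals (bars) for BR6OX1 and SOB7 in the 4 main comparisons. Filled points are listed by the authors, open points are not, and dashed lines mark a 2-fold change. The interval of BR6OX1 for light in Col-0, −1.15 to −0.81, spans the 2-fold line. The point of SOB7 for light in Col-0 is the deposited fold, from which its reads in dark Col-0 were taken.

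Counted over all 7 members, light in Col-0 lowered 2 (CPD and SOB7) and raised none. Of all 11417 genes in any table, 26.1% were listed lower and 17% higher in that comparison. Light in 35S:miR396a lowered 2 (CPD and BR6OX1) and raised none, against 23.1% listed lower and 20.6% higher. Between genotypes in the dark 0 of 7 were listed, against 8.74% listed higher and 10.6% lower. Between genotypes in the light 1 was higher (SOB7) and 1 lower (BR6OX1), against 35.5% higher and 25.9% lower. The 7 include 4 members in no table, whereas the 11417 genes were all listed somewhere, so counts and shares have unlike bases. The same holds for the lists below, which also count genes in no table. With so few genes, the member counts were not read as differing from the background shares. CPD was the member listed in both light tables, which share no libraries. The remaining 2 tables cross light and genotype and share libraries with the others. Dark 35S:miR396a against illuminated Col-0 listed 2 members as higher (CPD, log2 fold 1.76, and SOB7, 1.19, in the authors' deposited table), where 29.5% of all genes were listed higher and 17.9% lower. Illuminated 35S:miR396a against dark Col-0 listed BR6OX1 as lower (log2 fold −3.02 in the authors' deposited table), where 25.5% were listed lower and 23.6% higher.

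The rest of the pathway was read from 6 lists with 62 genes, of which 26 had a value in some table. None of the 14 other synthesis genes was in any table. They include DET2, a steroid reductase, DWF1, DWF5 and DWF7 of sterol synthesis, and CYP90D1, which acts beside ROT3. Of the 9 other inactivation genes, 7 had a value.

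Those 7 did not move as a block. The sulfotransferase genes ST4B and ST4C fell with light in both genotypes. ST4B had a mean of 15.6 FPKM in dark Col-0 and 3.96 in illuminated Col-0, then 9.84 and 3.74 in 35S:miR396a. ST4C went from 17.8 to 6.06 FPKM in Col-0 and from 11.5 to 2.29 in 35S:miR396a. SOT12, a sulfotransferase that accepts brassinosteroids and salicylic acid, was listed with light in 35S:miR396a alone. Its means were 10.8 FPKM in dark and 17.8 in illuminated Col-0, and 14.3 and 168 in 35S:miR396a. UGT73C5, which attaches glucose to brassinosteroids and to foreign compounds, was at 9.99, 14.3, 4.10 and 46.5 FPKM in the same order. Its neighbour and close copy UGT73C6 was at 4.78, 6.69, 1.76 and 9.16 FPKM. Reads shared by these copies, or by ST4B and ST4C, may have been split between them. Both UGT genes were listed lower in dark 35S:miR396a than in dark Col-0 and higher after light within 35S:miR396a. BIA1, an acyltransferase that lowers active hormone, was listed as higher in the transgenic line after light, at 7.60 against 2.96 FPKM in Col-0. ST4A stayed under 0.4 FPKM in all groups. In the light, 3 of the 9 were listed higher in 35S:miR396a (UGT73C5, BIA1 and SOT12) and 1 lower (ST4C), beside 35.5% higher and 25.9% lower among all 11417 genes.

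Of 17 perception and signalling genes 5 had a value. Light left 0 higher and 1 lower in Col-0, beside 17% and 26.1% of all genes, and 1 higher and 3 lower in 35S:miR396a, beside 20.6% and 23.1%. Between genotypes 1 was higher and 0 lower in the dark, and 2 were higher and 1 lower in the light, beside 8.74% and 10.6%, then 35.5% and 25.9%, of all genes. The 17 include 12 genes in no table, whereas the 11417 genes were all listed somewhere, so the 2 bases are not alike. The receptor BRI1, its partner BAK1, the kinase BIN2, BZR1 and BES1 were in no table. BEH2, a homologue of BZR1, fell with light in both genotypes, from 53.2 to 15.9 FPKM in Col-0 and from 52.1 to 16.2 in 35S:miR396a. BEH1, another homologue, was at 4.42 FPKM in dark and 5.58 in illuminated Col-0, and at 9.27 and 1.72 in 35S:miR396a. BEH3 was listed higher with light in 35S:miR396a, from 3.46 to 8.003 FPKM. BIL2 (GSK1 in RefSeq), a kinase related to BIN2, was listed lower with light in 35S:miR396a at 56.5 and 27.4 FPKM. The receptor homologue BRL3 was listed higher in illuminated 35S:miR396a than in illuminated Col-0, with 8.99 against 3.17 FPKM. ABCB19, a transporter that exports auxin and brassinosteroid, fell with light in 35S:miR396a from 92.2 to 24.3 FPKM.

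Among 12 transcriptional regulators reported to act on synthesis or inactivation genes, 6 had a value. With light 2 were higher and 2 lower in Col-0, and 1 was higher and 3 lower in 35S:miR396a, beside the same shares over all genes as above. Between genotypes 1 was higher and 1 lower in the dark, beside 8.74% and 10.6% of all genes. In the light 2 were higher and 3 lower, beside 35.5% and 25.9%. CCA1, a clock MYB factor, and ATAF2, a NAC factor, are reported repressors of the inactivation genes. CCA1 was at 13.2 FPKM in dark Col-0 and 2.66 in illuminated Col-0, and at 8.89 and 9.97 in 35S:miR396a. Its profile resembled that of SOB7, low in illuminated Col-0 and level in 35S:miR396a. ATAF2 also fell with light in Col-0, from 57.2 to 14.6 FPKM, but rose in 35S:miR396a from 28.2 to 138 FPKM. BEE2 and BEE3, relatives of CESTA, which activates CPD, went the other way. BEE2 rose with light in Col-0 from 16.5 to 33.9 FPKM and fell in 35S:miR396a from 27.1 to 7.27. BEE3 rose in Col-0 from 3.15 to 9.92 FPKM and fell in 35S:miR396a from 11.2 to 3.90. BEE1 fell with light in 35S:miR396a from 13.5 to 5.66 FPKM. PIF5, a phytochrome-interacting factor, was lower in illuminated 35S:miR396a (8.64 FPKM) than in illuminated Col-0 (25.3 FPKM). CESTA, TCP1, PIF4, BRX and LOB were in no table.

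Growth genes that brassinosteroid induces were mostly lower after light. Of 8 such genes 5 were listed lower in Col-0 and 5 in 35S:miR396a, with none higher in either, beside 26.1% and 23.1% of all genes listed lower. EXPA8, a wall-loosening expansin, went from 98.8 to 35.0 FPKM in Col-0 and from 76.7 to 14.8 in 35S:miR396a. SAUR-AC1, an auxin-responsive growth gene, went from 2.99 to 1.29 and from 1.81 to 0.39 FPKM. IAA19, an auxin-response repressor, went from 100.5 to 9.15 FPKM in Col-0 and from 84.3 to 9.67 in 35S:miR396a. PRE1, a growth-promoting regulator, was listed in 35S:miR396a alone, from 10.7 to 1.45 FPKM, and was at 5.71 and 3.38 in Col-0. Its relative PRE6 was likewise listed in 35S:miR396a, from 52.5 to 10.6 FPKM, and PRE5 in Col-0, from 5.50 to 1.22. TCH4, a xyloglucan-remodelling enzyme, fell in Col-0 from 174 to 74.8 FPKM and was at 22.8 and 44.1 in 35S:miR396a, where it was not listed. Over the 7 with values the median log2(FPKM + 1) ratio of light over dark was −1.21 in Col-0, against −0.11 over 7778 genes with both values. In 35S:miR396a it was −2.20, against −0.05 over 7756 genes. All these genes have a value because the authors listed them somewhere, so neither median describes the whole transcriptome. Between genotypes in the dark 1 of the 8 was higher (PRE6) and 2 were lower (TCH4 and PRE5) in the transgenic line, beside 8.74% and 10.6% of all genes. In the light 3 were lower (SAUR-AC1, EXPA8 and PRE1) and none was higher, beside 25.9% and 35.5%.

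**Figure D3:**
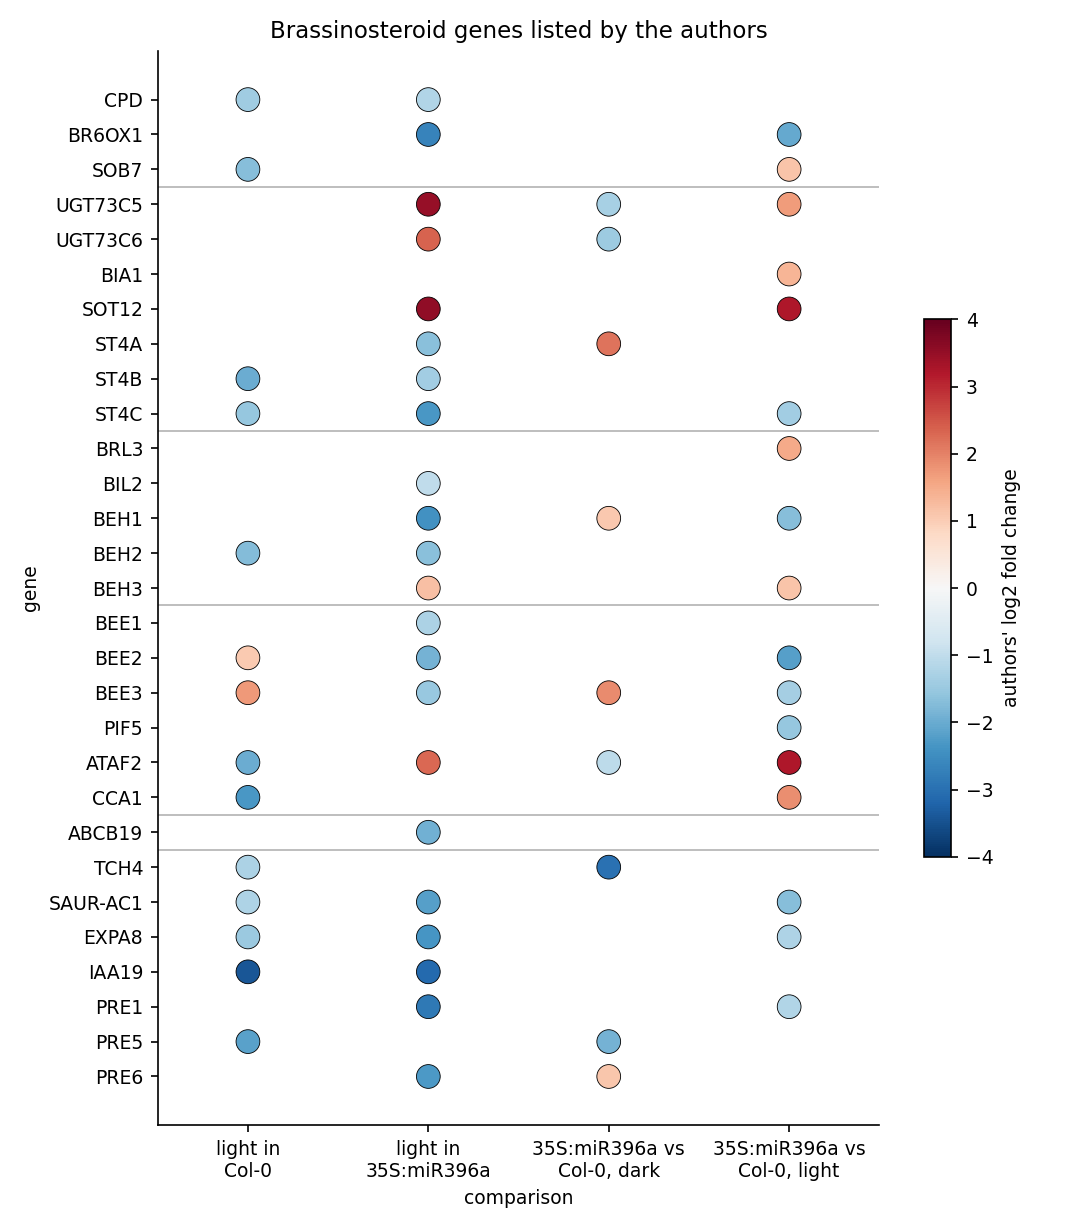
Log2 fold change from the authors' deposited tables for each brassinosteroid gene listed in 1 or more of the 4 main comparisons. Blue is lower, red is higher, and an empty place means not listed. From the top, groups separated by lines are the members, other inactivation enzymes, signalling, regulators, transport and growth genes. The 3 members are empty for the genotype comparison in the dark.

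**Figure D4:**
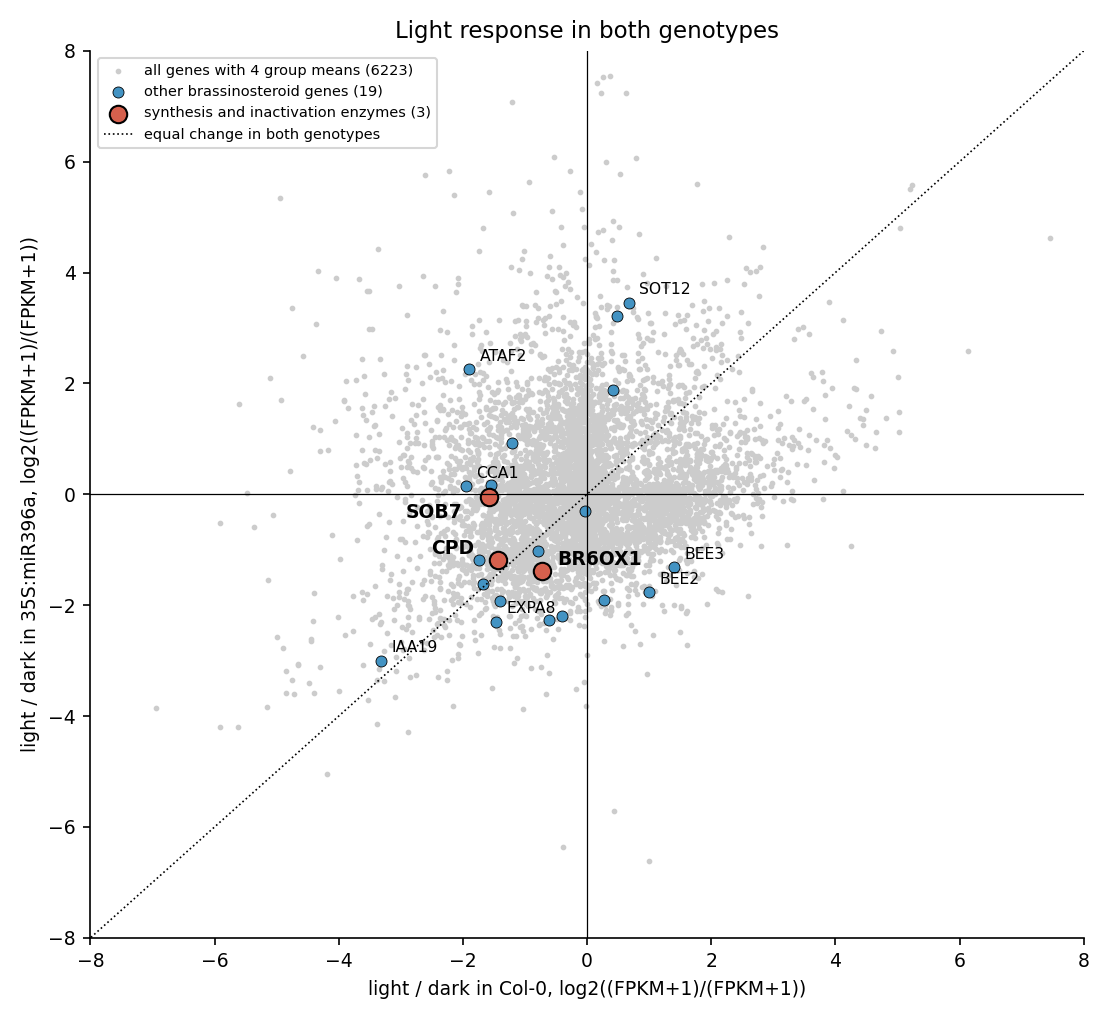
Light over dark in Col-0 (horizontal) and in 35S:miR396a (vertical), both as log2((FPKM + 1)/(FPKM + 1)), for 6223 genes with means in all 4 groups. CPD lies near the line of equal change at −1.43 and −1.18, SOB7 lies at −1.58 and −0.05, and BR6OX1 lies at −0.72 and −1.38.

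On the log2(FPKM + 1) scale, the light ratio of the transgenic line less that of the wild type was 0.25 for CPD, −0.67 for BR6OX1 and 1.53 for SOB7. The median over 6223 genes was 0.12. The value for SOB7 exceeded that of 81.4% of these genes, CPD that of 54.4% and BR6OX1 that of 29.2%. The added 1 FPKM shrinks the changes of BR6OX1, whose levels are close to it. The sign for CPD was not stable, turning to −0.24 under median-of-ratios scaling.

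The genes most like each member were found by the distance between log2(FPKM + 1) profiles, each centred on its own mean over the 4 groups, among 3812 genes with a largest mean of at least 5 FPKM. For CPD these were MYBC1 (distance 0.122), AT5G63190 (0.122), which encodes an MA3-domain protein, and ARI5 (0.126). AT5G63190 was also close in level, at 142.8 and 53.0 FPKM in dark and illuminated Col-0, and 184.3 and 86.7 in 35S:miR396a. For BR6OX1 they were AT2G30350 (0.0691), TRM19 (0.0730) and the auxin-responsive SAUR gene AT1G29500 (0.123). These matches rest on the log2(FPKM + 1) scale, where the added 1 FPKM shrinks the changes of BR6OX1. Its largest mean is itself under 5 FPKM. From dark Col-0 to illuminated 35S:miR396a, BR6OX1 went from 3.513 to 0.436 FPKM. AT2G30350 went from 9.716 to 2.496 FPKM, TRM19 from 11.473 to 2.98 and AT1G29500 from 5.186 to 0.89, all smaller changes in fold. For SOB7 the nearest genes were AT2G38500 (0.0870), annotated as an oxygenase, LOG5 (0.0887), a cytokinin-activating enzyme, and the protein kinase gene AT3G59350 (0.0916). CCA1 ranked 58 for SOB7, at a distance of 0.389. The distances between members were 0.821 between CPD and SOB7, 1.16 between CPD and BR6OX1 and 1.43 between BR6OX1 and SOB7. The nearest genes were picked as the smallest distances among 3812, so larger distances between members were built in. The ranks of the members for one another were not taken, so whether their profiles are unlike was not tested.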

How the data were processed

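Libraries were sequenced on the BGISEQ-500 platform, per the labels' protocols, and the submitters' processing notes name HISAT, Bowtie2 and the build TAIR10. FPKM values are group averages made by the authors, per the file headers. The log2 fold change and the DEGseq p-value and q-value were deposited by the authors, per the file headers, while the series' design text names NOISeq. Letters D and L in the titles were read as dark and light. No model was fitted, since only group means were at hand, and listed genes were counted. Ratios used log2(FPKM + 1).

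Pooled reads were solved from folds and p-values under the random-sampling model of DEGseq, which was tested on simulated data. For SOB7 in dark Col-0 the p-value was listed at 0, so its 5957 reads came from its illuminated reads and the deposited fold. Its light fold in Col-0 is thus the deposited one, and these reads enter its dark genotype fold and the difference of 1.64. Relative depth was the value that made most low reads (under 60) whole within 0.05, which held for 82.4% to 85.8% of 301 to 565 genes per table. Between groups, relative pooled depth was 0.903 to 1.005. Depth of single libraries is unknown.

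Members, lists and tests were chosen with earlier results of these data known. The text names all members, list genes listed in a main comparison and the 3 nearest profiles per member. The miR396 target list and CCA1's rank were added after values were seen. Identifiers matched RefSeq for 11157 of 11417 genes. Upstream sequences came from TAIR10.1. The planned protein identity was replaced by coding-sequence identity. Columns of other series numbered 0. Alternatives were other pseudocounts, scalings and fold thresholds. Python 3.11.15, pandas 2.3.3, scipy 1.17.1 and Biopython 1.88 were used.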

Additional observations from a re-analysis of the deposited data

How the results depend on the processing

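No paired analysis was possible because the tables hold group means, and for the same reason no library could be left out. In the 4 main comparisons the listed changes of the 3 members kept their direction under every pseudocount and scaling tried. Under median-of-ratios scaling CPD for light in Col-0 (−0.92) and SOB7 between genotypes in the light (0.72) were short of 2-fold. BR6OX1 between genotypes in the light was also short of it with 1 FPKM added, at −0.93 unscaled and −0.94 under upper-quartile scaling. Under median-of-ratios scaling BR6OX1 was at −1.20 there. At 4-fold the members listed were 0 for light in Col-0, 1 lower (BR6OX1) for light in 35S:miR396a, and 0 higher and 1 lower between genotypes in the light. At 8-fold no member was left in these 4 comparisons. The alternatives were not run for the 2 tables that cross light and genotype, where the authors' deposited table lists BR6OX1 at −3.02 (log2), past 8-fold. With a larger mean of at least 5 FPKM, BR6OX1 left both of its lists, so 1 and 0 members were lower in 35S:miR396a with light and between genotypes in the light. Scaling factors were taken over genes that are all listed somewhere, and median-of-ratios scaling moved log2 ratios taken without a pseudocount by 0.52 for light in Col-0, 0.14 between genotypes in the dark and −0.37 in the light. Upper-quartile scaling moved them by 0.16, 0.35 and −0.02, and by −0.21 for light in 35S:miR396a. With 1 FPKM added, low genes move less. Every listed fold exceeds 1 on the log2 scale, which is more than any of these shifts.

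CPD was at −0.92 (median-of-ratios) and −1.28 (upper-quartile) for light in Col-0 and at −1.39 (upper-quartile) for light in 35S:miR396a. Between genotypes it was at 0.44 and 0.65 in the dark and 0.20 (median-of-ratios) in the light. SOB7 for light in Col-0 was at −1.68 with a pseudocount of 0.1, −1.70 with none, −1.10 and −1.43 under the same scalings, and −1.70 by the deposited fold. For light in 35S:miR396a it was at −0.25 (upper-quartile), between genotypes in the dark at −0.35 and −0.15, and in the light at 1.13 (0.1), 1.14 (none), 0.72 (median-of-ratios) and 1.13 (deposited). BR6OX1 for light in Col-0 was at −0.97 (0.1), −1.01 (none) and −0.36 (median-of-ratios), and for light in 35S:miR396a at −2.41, −2.66 and −2.66 (deposited). Between genotypes it was at −0.0052 in the dark (upper-quartile) and at −1.78, −1.999 and −2.04 (deposited) in the light. The difference of light ratios was −1.44 and −1.04 for BR6OX1, 1.63 and 1.07 for SOB7, with a pseudocount of 0.1 and median-of-ratios scaling, and −0.24 for CPD under the latter. Pseudocounts act on low levels by construction, and the cause of the other shifts was not tested.

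With genes known in both groups as the base, 13.8% were higher and 16.8% lower between genotypes in the dark. At 4-fold, the other inactivation genes were 0 lower in Col-0 with light, and 3 higher and 1 lower in 35S:miR396a with light. Between genotypes they were 1 higher and 0 lower in the dark, and 1 higher and 0 lower in the light. Signalling genes were then 0 or 1 in each direction, regulators 0 or 1 and transport 0. Growth genes were 2 lower in Col-0 and 5 lower in 35S:miR396a with light. Between genotypes they were 0 higher and 1 lower in the dark, and 0 lower in the light. The share of all genes at 4-fold or 8-fold is not given here, so these counts of members and lists have no background beside them.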
